A study of Mus musculus with 6 samples.

Results

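Hedgehog signalling was examined through 9 of its genes in mouse embryonic stem cells that had been differentiated towards endoderm with or without forced expression of HOXA13. The genes were taken by symbol and are the ligands Shh, Ihh and Dhh, the receptor Ptch1, the signal transducer Smo, the transcription factors Gli1, Gli2 and Gli3, and the ligand-binding inhibitor Hhip. All 9 were present among the 24393 genes listed, and 8 passed the expression filter, with Shh the exception. In brief, the level of Ptch1 was 2.73-fold higher and that of Smo 1.64-fold lower in HOXA13 cells. Neither gene overlapped between the groups, and 20.0% of all tested genes did not overlap either. Hhip was 4.71-fold lower, with 1 CONTROL sample at the HOXA13 level. None of the 8 passed a threshold of 0.05 on the adjusted p of edgeR's quasi-likelihood test, and Ptch1, Smo and Hhip passed it with DESeq2 (which called 5.07% of all genes), with limma voom (15.4%), and when CONTROL replicate 2 was left out (14.2%). The other 12 of the 15 alternatives run called none of the Hedgehog genes. Among the 15, Gli3 passed with limma voom only.

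KH2 cells are a mouse embryonic stem cell line built to take up doxycycline-inducible genes (strain given as C57/BL/6). In the HOXA13 group they carried the human HOXA13 gene with a FLAG tag behind a doxycycline-inducible promoter. The HOXA13 group and the CONTROL group each held 3 biological replicates. The transgenic cells came from targeted clones, and how the CONTROL replicates relate to those clones is not said, so clone and transgene cannot be told apart. All 6 samples share 1 protocol in the labels: growth on feeder cells of the mesoderm-derived line M15 in medium without LIF and supplemented with CHIR, Noggin, bFGF and Activin-A, induction on day 4 with doxycycline at 1.25 µg/ml, sorting on day 6 of cells that stained for CXCR4 together with E-cadherin, and another day of culture with doxycycline before RNA was taken. Whether CONTROL cells also received doxycycline is not said beyond this shared protocol, so the drug and the transgene cannot be told apart if they did not.

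In the absence of ligand, Ptch1 keeps Smo inactive at the primary cilium, and Gli2 and Gli3 are processed into repressors of transcription. Binding of a Hedgehog ligand to Ptch1 releases Smo, and full-length Gli proteins then switch on target genes. Ptch1, Gli1 and Hhip are themselves classical targets of the pathway, and Ptch1 and Hhip restrain it by binding ligand. In the gut, epithelial cells are known as the source of Shh and Ihh, and the mesenchyme around them as the tissue that responds.

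Gli proteins bind the DNA sequence GACCACCCA, and the regions around the gene starts were searched for exact matches to these 9 bases on both strands. The window ran from 1000 bases before to 200 bases after the start of each protein-coding gene in GENCODE M1 (genome build mm9). Of 22380 windows, 226 held a match (1.01%). Of the 9 Hedgehog genes only Ptch1 held a match, which begins 307 bases before its start on the strand of the gene. The stretch around it is printed because it holds the match within the window searched, at chr13:63674713-63674841 (minus strand). It is written 5′ to 3′ along the gene, and the capitals mark the match.

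Ptch1: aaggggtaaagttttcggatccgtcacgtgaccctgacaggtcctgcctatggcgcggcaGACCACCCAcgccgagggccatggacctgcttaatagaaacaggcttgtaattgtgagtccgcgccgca

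A match describes the sequence and is not evidence of binding, and its absence from the other 8 windows says only that these letters are not there.

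RNA was measured as read counts per gene, with total counts between 12279884 and 17331638 per sample. Levels are given as CPM, that is reads relative to the TMM-scaled size of the library, and where 3 values are listed for a group they stand in the order of replicates 1, 2 and 3. A floor of 3 counts, which covers counting error only, equals 0.176 to 0.240 CPM. Mouse Hoxa13 had at most 10 counts in any sample. A row under the human identifier ENSG00000106031, which the files pair with no symbol, had no count in CONTROL and 2497, 7666 and 6572 reads with HOXA13. CONTROL replicate 2 stood apart from the other CONTROL samples. Spearman's rho, taken over the 13600 tested genes (genes are no independent replicates), was 0.908 between it and CONTROL replicate 1 and 0.931 between it and CONTROL replicate 3, which had 0.977 with each other, and it lay between 0.963 and 0.986 for pairs of HOXA13 samples. Definitive endoderm is the labelled cell type, and its markers differed in level. Sox17 lay between 0.975 and 4.84 CPM, Foxa2 between 1.76 and 5.04 CPM and Cer1 at 0 counts in all 6 samples. Gata4 had 13.1 to 31.9 CPM, Gata6 5.69 to 35.8 CPM and Eomes 24.4 to 111 CPM. Eomes was lower with HOXA13 without overlap (log2 fold change -1.32, SE 0.33, edgeR adjusted p 0.141). Of the 9 definitive endoderm markers tested, 5 had a log2 fold change below 0 and 4 above it. Among these 4, Sox17, Cxcr4 and Mixl1 lie on chromosome 1, where 92.2% of 476 genes with at least 16 CPM were positive. The part of this chromosome 1 shift in their values was not tested. Mixl1 had 2.09 (SE 0.95, edgeR adjusted p 0.377) and overlapped between the groups.

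The 3 ligand genes were expressed at low levels, of which Dhh and Ihh did not pass the test in edgeR and Shh did not pass its expression filter. Dhh, best known from Sertoli cells and Schwann cells, was the highest of them. It stood at 5.46, 10.5 and 16.5 CPM in the CONTROL samples, against 8.68, 5.21 and 3.52 CPM with HOXA13. The groups overlapped, since CONTROL replicate 1 lay below HOXA13 replicate 1. Group means were 10.8 ± 5.53 CPM for CONTROL and 5.80 ± 2.63 CPM for HOXA13 (SD, n = 3), and Dhh had a log2 fold change of -0.90 (SE 0.53, edgeR adjusted p 0.510), with a 95% interval from -2.11 to 0.31. It was -0.48 without CONTROL replicate 3 and -1.32 without HOXA13 replicate 1.

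Ihh, the Indian hedgehog ligand of gut epithelium and cartilage, stood at 0.567, 1.60 and 1.42 CPM in the CONTROL samples, against 2.92, 3.28 and 1.03 CPM with HOXA13. HOXA13 replicate 3 lay among the CONTROL values and the other HOXA13 samples lay above them. The counts behind these levels were only 8 to 56 reads. For Ihh this gave a log2 fold change of 1.01 (SE 0.85, edgeR adjusted p 0.671), with a 95% interval from -0.95 to 2.96. Without one replicate it ranged from 0.64, without CONTROL replicate 1, to 1.35, without HOXA13 replicate 3.

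Ihh lies on chromosome 1, at chr1:74991891-74998246, and genes of this chromosome were shifted as a whole. The median log2 fold change of 476 chromosome 1 genes with at least 16 CPM was 0.54 and 92.2% of them were positive, against 47.4% of 7481 genes elsewhere. When the samples were offset chromosome by chromosome for this kind of shift, Ihh had a log2 fold change of 0.44 (edgeR adjusted p 0.882). The part of this shift in the level of Ihh was not tested further.

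Shh, the Sonic hedgehog ligand of the early gut endoderm, floor plate and notochord, was at or under the floor of 3 counts in 4 of the 6 samples. Its reads numbered 8, 0 and 0 in the CONTROL samples, against 15, 2 and 0 with HOXA13. The highest value, in HOXA13 replicate 1, was 1.15 CPM, and 3 of the 6 samples had no count. Shh failed the expression filter of the edgeR fit and was not called by edgeR with no filter, and DESeq2 gave it no adjusted p. A difference between groups was not detectable at this depth. Its exons overlap those of 9530036O11Rik on the other strand, which had 7 counts in HOXA13 replicate 3 and 0 elsewhere.

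**Figure D1:**
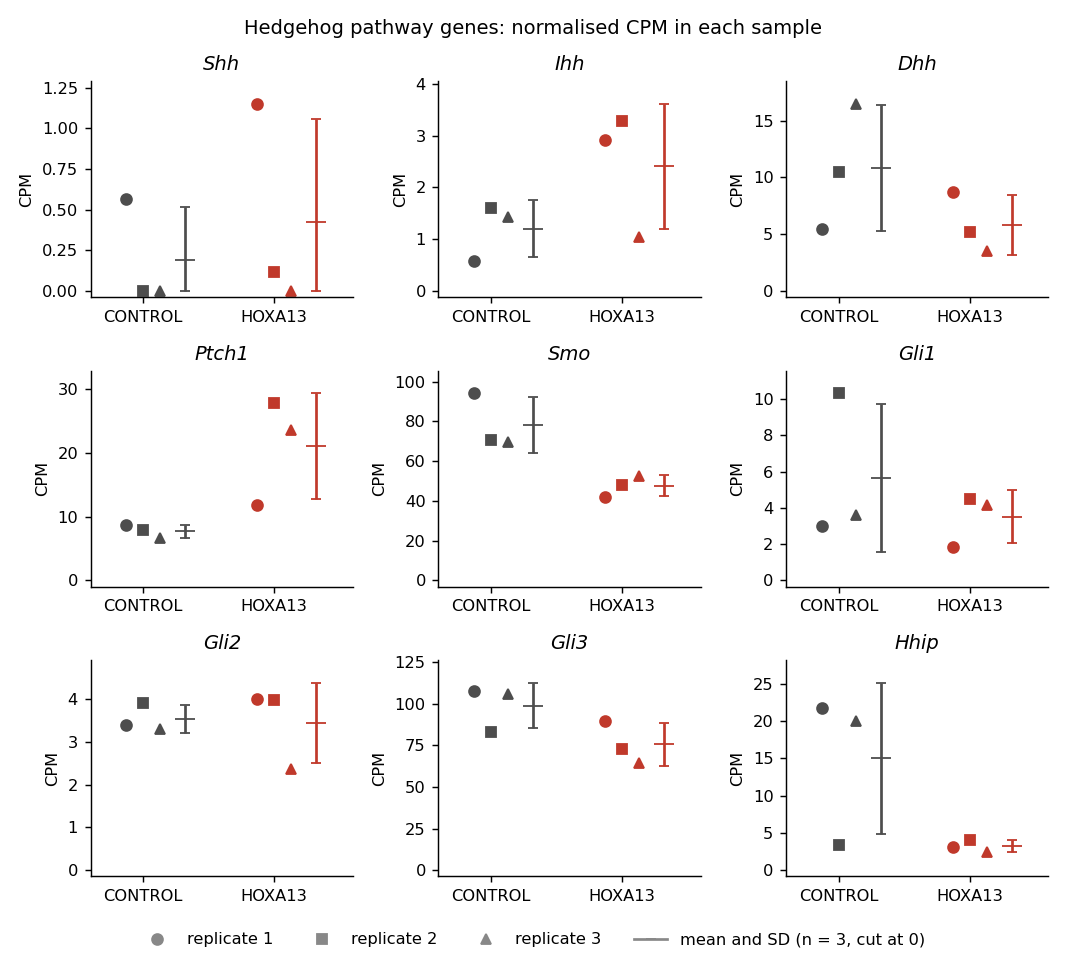
Normalised CPM of the 9 Hedgehog genes in each sample, with CONTROL in grey and HOXA13 in red, a different marker for each replicate number, and the mean with its SD (n = 3, cut at 0) beside the points; each panel has its own scale. Ptch1 and Smo are the panels in which the groups do not overlap, and in the Hhip panel CONTROL replicate 2, at 3.36 CPM, sits among the HOXA13 samples.

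Set against each other per kilobase of exon, Dhh made up most of the ligand transcripts in every sample. Its share of the summed CPM per kb of the 3 ligands was 84.0%, 87.2% and 92.4% for the CONTROL samples, against 69.5%, 61.6% and 78.1% with HOXA13. The share of Ihh was 7.64% to 12.8% in CONTROL and 21.9% to 37.2% in HOXA13. These shares did not overlap between the groups, although the levels of Dhh and Ihh each did. With 3 samples a group a two-sided exact permutation test cannot go below 0.10, so no test was run on the shares. Few reads stand behind the shares of Ihh and Shh, and the part of the chromosome 1 shift in that of Ihh was not tested.

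**Figure D2:**
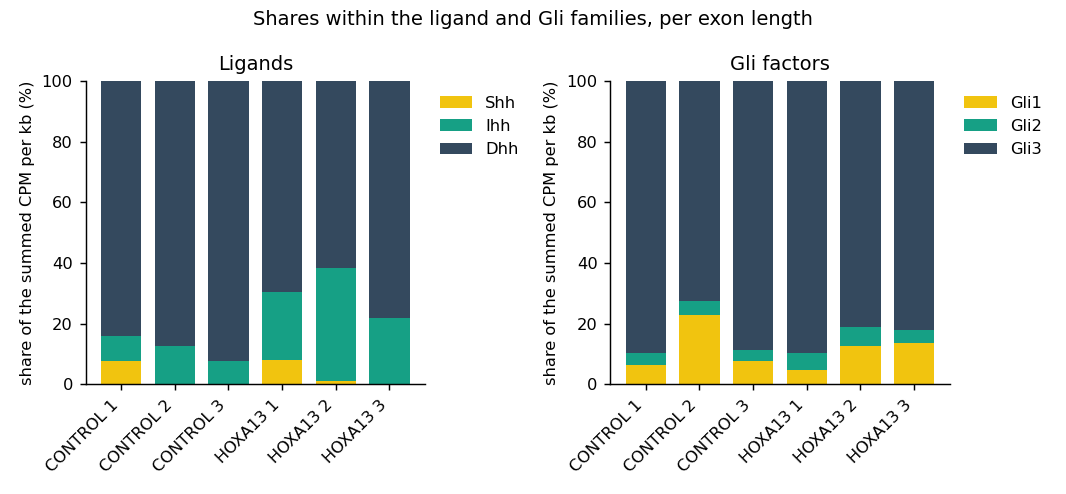
Share of each gene in the summed CPM per kb of exon of its family, for the 3 ligands (left) and the 3 Gli factors (right), 1 bar per sample. Dhh takes between 61.6% and 92.4% of the ligand bar, with a larger Ihh share in the 3 HOXA13 samples, and Gli3 takes between 72.5% and 89.8% of the Gli bar.

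Ptch1, which encodes the receptor that binds all the ligands and holds Smo inactive, was higher in every HOXA13 sample than in any CONTROL sample. It stood at 8.65, 7.92 and 6.60 CPM in the CONTROL samples, against 11.8, 27.9 and 23.6 CPM with HOXA13. The CONTROL samples lay close together, CONTROL replicate 2 included, whereas HOXA13 replicate 1 was much nearer to CONTROL than the other HOXA13 samples. Group means were 7.72 ± 1.04 CPM for CONTROL and 21.1 ± 8.31 CPM for HOXA13 (SD, n = 3), a 2.73-fold higher level with a 95% interval from 1.51-fold to 4.95-fold.

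On the log2 scale the fold change of Ptch1 was 1.45 (SE 0.37), with an adjusted p of 0.147 in edgeR's quasi-likelihood test (0.00450 unadjusted). The adjusted p was 0.0198 with DESeq2, 0.0163 with limma voom with sample quality weights, and 0.0464 in edgeR without CONTROL replicate 2. Over all 15 alternatives run, the log2 fold change of Ptch1 stayed between 1.17 and 1.72, and its adjusted p lay between 0.0163 and 0.547. Ptch1 lies at chr13:63610261-63674474 on the minus strand and its exons overlap no other annotated gene.

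Among the HOXA13 samples the order of Ptch1 was that of the row under the human identifier, which stood at 192, 449 and 398 CPM. Replicate 1 was lowest and replicate 2 highest for both. Of the other tested Hedgehog genes only Gli1 had this order, and 22.7% of the 13600 tested genes had it as well, so the order alone does not set Ptch1 apart.

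Smo, which encodes the membrane protein that passes the signal on, was lower in every HOXA13 sample than in any CONTROL sample. It stood at 94.2, 70.5 and 69.8 CPM in the CONTROL samples, against 42.1, 48.1 and 52.6 CPM with HOXA13. CONTROL replicate 2 lay with CONTROL replicate 3, and CONTROL replicate 1 was the highest. Group means were 78.2 ± 13.9 CPM for CONTROL and 47.6 ± 5.24 CPM for HOXA13 (SD, n = 3), a 1.64-fold lower level with a 95% interval from 1.2-fold to 2.25-fold.

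On the log2 scale the fold change of Smo was -0.72 (SE 0.20), with an adjusted p of 0.162 in edgeR (0.00648 unadjusted). The adjusted p was 0.0461 with DESeq2, 0.0278 with limma voom and 0.0265 in edgeR without CONTROL replicate 2. Over the 15 alternatives the log2 fold change of Smo stayed between -0.81 and -0.58, and its adjusted p between 0.0265 and 0.532. Smo (chr6:29685694-29711365, plus strand) had the most reads per length of the 9 genes in both groups.

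The ratio of the receptor to the transducer did not overlap between the groups either. The level of Ptch1 per kb divided by that of Smo per kb was 0.0528, 0.0645 and 0.0543 for the CONTROL samples. It was 0.161, 0.333 and 0.258 with HOXA13. Smo transcripts outnumbered Ptch1 transcripts in all 6 samples, by 15.5-fold to 18.9-fold in CONTROL and by 3.00-fold to 6.19-fold in HOXA13. The ratio restates the 2 genes above and was not tested on its own.

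None of the 3 Gli genes passed the test in edgeR, and Gli3 was the most abundant of them in every sample. Gli1, the Gli factor that acts only as an activator and is itself induced by the pathway, stood at 2.98, 10.3 and 3.60 CPM in the CONTROL samples, against 1.84, 4.51 and 4.18 CPM with HOXA13. CONTROL replicate 2 was the highest sample and the remaining CONTROL values lay inside the HOXA13 range. Gli1 had a log2 fold change of -0.68 (SE 0.66, edgeR adjusted p 0.724), it was 0.08 without CONTROL replicate 2 and 0.10 with limma voom, and so Gli1 had no settled direction. Gli1 also shares exon bases with Arhgap9 on the opposite strand, which had 8 to 59 counts per sample, and whether the authors counted by strand is not stated.

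Gli2, the main activator in many tissues, differed by less than the replicate spread. It stood at 3.40, 3.92 and 3.30 CPM in the CONTROL samples, against 4.00, 3.98 and 2.36 CPM with HOXA13, from 39 to 68 counts per sample. HOXA13 replicate 3 was the lowest and HOXA13 replicates 1 and 2 the highest, although by less than 0.1 CPM over CONTROL replicate 2. Gli2 had a log2 fold change of -0.04 (SE 0.54, edgeR adjusted p 0.987), and its 95% interval from -1.28 to 1.21 leaves room for a change of more than 2-fold in either direction. Gli2 is also on chromosome 1, and its log2 fold change was -0.62 with the chromosome offset (edgeR adjusted p 0.712).

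Gli3, which acts chiefly as a repressor when no ligand is bound, stood at 108, 83.2 and 106 CPM in the CONTROL samples, against 89.8, 72.8 and 64.3 CPM with HOXA13. The groups overlapped only through CONTROL replicate 2, which lay below HOXA13 replicate 1. Group means were 99.0 ± 13.7 CPM for CONTROL and 75.6 ± 13 CPM for HOXA13 (SD, n = 3). The log2 fold change of Gli3 was -0.39 (SE 0.19, edgeR adjusted p 0.423) with a 95% interval from -0.83 to 0.05, and Gli3 passed the threshold only with limma voom (log2 fold change -0.58, adjusted p 0.0276). Gli3 made up 72.5% to 89.8% of the summed Gli CPM per kb, and Gli1 made up 22.8% in CONTROL replicate 2 and 4.67% to 13.6% in the other samples.

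Hhip, which encodes a membrane protein that binds and sequesters Hedgehog ligands, was the Hedgehog gene with the lowest log2 fold change. It stood at 21.7, 3.36 and 19.9 CPM in the CONTROL samples, against 3.07, 4.04 and 2.43 CPM with HOXA13. CONTROL replicates 1 and 3 were far above all other samples, and CONTROL replicate 2 lay within the HOXA13 range. Group means were 15 ± 10.1 CPM for CONTROL and 3.18 ± 0.814 CPM for HOXA13 (SD, n = 3), a 4.71-fold lower level with a 95% interval from 1.62-fold to 13.6-fold.

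On the log2 scale the fold change of Hhip was -2.24 (SE 0.67), with an adjusted p of 0.186 in edgeR (0.00996 unadjusted). The adjusted p was 0.0171 with DESeq2, 0.0152 with limma voom and 0.00290 in edgeR without CONTROL replicate 2, where the log2 fold change was -2.72. Over the 15 alternatives the log2 fold change of Hhip stayed between -2.72 and -1.89, and its adjusted p between 0.00290 and 0.596. Hhip and Ptch1, both targets and inhibitors of the pathway, thus lay on opposite sides of 0, with Ptch1 above Hhip per kb in every HOXA13 sample (2.87-fold, 5.14-fold and 7.24-fold) and below it in CONTROL replicates 1 and 3 (ratios of 0.297 and 0.246). In CONTROL replicate 2 Ptch1 was 1.75-fold above Hhip.

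**Figure D3:**
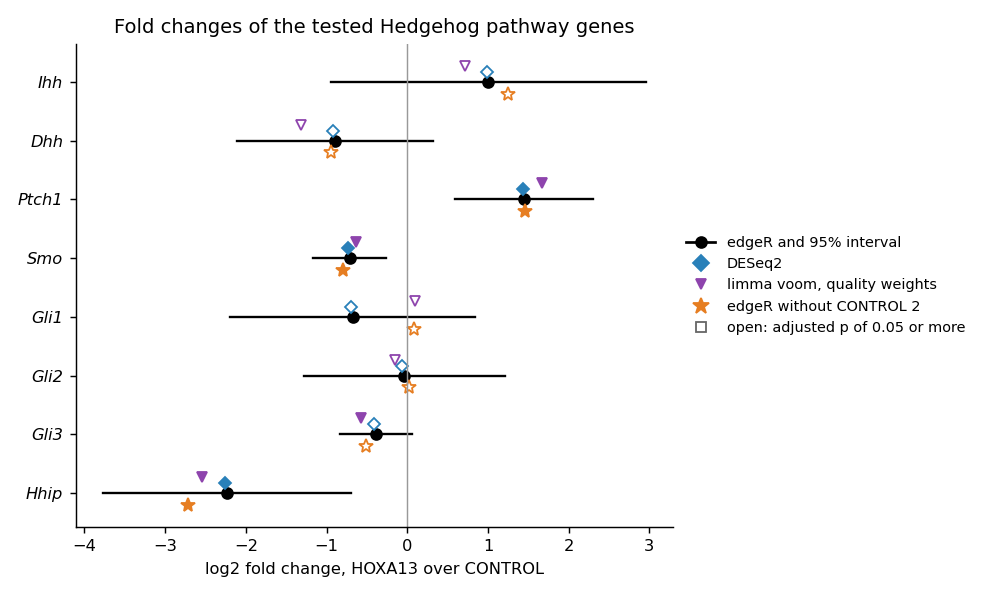
Log2 fold change of HOXA13 over CONTROL for the 8 tested Hedgehog genes, with the edgeR estimate and its 95% interval in black and the estimates of DESeq2, limma voom with quality weights and edgeR without CONTROL replicate 2 as coloured symbols, filled where the adjusted p is under 0.05. The edgeR intervals of Ptch1, Smo and Hhip exclude 0, and the symbols of Gli1 fall on both sides of it.

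Counted over the genes, edgeR called 0 of the 8 tested Hedgehog genes, against a background of 0.309% (42 of 13600 genes). At an unadjusted p under 0.05 it had 3 of the 8, Ptch1 higher and Smo and Hhip lower, where the background was 14.1% (8.05% higher and 6.02% lower). DESeq2 called the same 3 genes against a background of 5.07%, and limma voom called 4, with Gli3 in addition, against 15.4%. Without CONTROL replicate 2, edgeR called 3 against 14.2%. Groups that did not overlap were seen in 2 of the 8, where 20.0% of all tested genes were separated in this way (11.5% higher and 8.52% lower), so a count of 2 is close to the background. The median log2 fold change of the 8 was -0.53 and that of all tested genes -0.01, with 6 of the 8 below 0.

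The order of the genes by mean CPM per kb of exon was led by Smo (20.7 in CONTROL, 12.6 in HOXA13) and Gli3 (10.3 and 7.89) in both groups, and the ranges of these genes over the samples did not overlap each other or the next gene. Below them the order differed. In CONTROL it ran Dhh (4.58), Hhip (3.06), Gli1 (1.49), Ptch1 (1.17), Gli2 (0.515), Ihh (0.485) and Shh (0.0703). Dhh and Hhip, Hhip and Gli1, Gli1 and Ptch1, and Gli2 and Ihh overlapped in range there.

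In HOXA13 it ran Ptch1 (3.21), Dhh (2.46), Ihh (0.977), Gli1 (0.929), Hhip (0.650), Gli2 (0.502) and Shh (0.157). Only Dhh and Ihh were separated in range among these neighbours. Ptch1 thus held the sixth place in CONTROL and the third in HOXA13, there at a level that overlapped that of Dhh.

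The other genes of the pathway were taken as 60 genes in 6 roles, of which 54 were tested. In edgeR 0 of them passed, with 14 at an unadjusted p under 0.05 (3 higher and 11 lower), while DESeq2 called 6, limma voom 12 and edgeR without CONTROL replicate 2 called 12. Over all tested genes the shares were 0.309% in edgeR, 14.1% at an unadjusted p under 0.05 (8.05% higher and 6.02% lower), 5.07% in DESeq2, 15.4% in limma voom and 14.2% in edgeR without CONTROL replicate 2. Of the 54, 37 had a negative and 17 a positive log2 fold change, with a median of -0.20. Groups did not overlap for 4 genes that were higher and 13 that were lower, where the shares over all tested genes were 11.5% and 8.52%. The 6 genes called by DESeq2 were Gpr161, which was higher, and Scube3, Lrp2, Gpc3, Bmp4 and Nr2f2, which were lower. All 6 were also called by limma voom and by edgeR without CONTROL replicate 2.

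The co-receptors and ligand-binding proteins were the role with the lowest median log2 fold change, -0.97 over 6 genes, of which 5 were below 0. Gpc3, a glypican that binds Hedgehog ligand at the cell surface and competes with Ptch1 for it, had the lowest value. It stood at 60.1, 22.5 and 40.4 CPM in the CONTROL samples, against 4.69, 6.62 and 9.34 CPM with HOXA13. The groups did not overlap, CONTROL replicate 2 being the lowest of its group and still more than 2-fold above any HOXA13 sample. The log2 fold change of Gpc3 was -2.57 (SE 0.42, edgeR adjusted p 0.0619), and its adjusted p ranged from 6.52e-07 to 0.328 over the alternatives.

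Lrp2, the endocytic receptor megalin, which takes up Shh, stood at 205, 113 and 285 CPM in the CONTROL samples, against 97.8, 103 and 84.9 CPM with HOXA13. CONTROL replicate 2 was only a little above the highest HOXA13 sample. Lrp2 had a log2 fold change of -1.08 (SE 0.31, edgeR adjusted p 0.175).

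The ligand-binding co-receptors Gas1, Boc and Cdon, which present Hedgehog to Ptch1, are given here after their values were seen. Gas1 stood at 3.19, 3.20 and 3.60 CPM in the CONTROL samples, against 7.92, 8.67 and 6.67 CPM with HOXA13, higher without overlap (log2 fold change 1.22, edgeR adjusted p 0.239). Boc was lower without overlap (log2 fold change -1.35, edgeR adjusted p 0.268), at 5.85 to 8.37 CPM in CONTROL and 1.82 to 3.57 CPM in HOXA13. Cdon overlapped between the groups (log2 fold change -0.86, edgeR adjusted p 0.335). The 3 co-receptors thus did not share a direction.

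Of the genes that release ligand from the cells that make it, 3 of 6 were tested, with a median log2 fold change of 0.66. Scube1, a relative of Scube3, and Hhat, which attaches palmitate to the ligands, had log2 fold changes of 2.02 (SE 1.34) and 0.66 (SE 0.85), and both overlapped between the groups. Hhat, whose value is the median, lies on chromosome 1, and the part of the chromosome 1 shift in it was not tested. Scube3, a secreted protein that helps carry lipid-bearing ligand away from the cell, stood at 18.6, 5.52 and 19.6 CPM in the CONTROL samples, against 2.00, 3.92 and 2.43 CPM with HOXA13. CONTROL replicate 2 was again the lowest CONTROL sample and lay nearest to the HOXA13 range. This corresponds to a log2 fold change of -2.38 for Scube3 (SE 0.57, edgeR adjusted p 0.124). Disp1, the gene of the transporter that releases the ligands, was listed at 0 in all 6 samples. The annotation used here gives Disp1 no position, and no level is read from it.

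Among the 8 regulators of Smo at the cilium the median log2 fold change was -0.09, and Gpr161 stood outside the rest. Gpr161 encodes a ciliary receptor that restrains the pathway through cAMP and protein kinase A. It stood at 5.74, 9.43 and 4.27 CPM in the CONTROL samples, against 21.1, 29.2 and 27.5 CPM with HOXA13, without overlap. The log2 fold change of Gpr161 was 2.00 (SE 0.36, edgeR adjusted p 0.0750). Gpr161 lies on chromosome 1, and with the chromosome offset its log2 fold change was 1.41 (edgeR adjusted p 0.179). The most abundant gene of this role, Adrbk1, which encodes the kinase GRK2 that phosphorylates Smo, had a log2 fold change of 0.11 (edgeR adjusted p 0.842).

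The 10 regulators of the Gli proteins were close to the median of all genes, with a median log2 fold change of -0.13. Sufu, which binds Gli proteins and holds them in the cytoplasm, stood at 73.3, 43.8 and 86.5 CPM in the CONTROL samples, against 42.9, 49.6 and 47.8 CPM with HOXA13. CONTROL replicate 2 lay inside the HOXA13 range, and the log2 fold change of Sufu was -0.54 (SE 0.26, edgeR adjusted p 0.415). Sufu passed with limma voom (-0.69, adjusted p 0.0261) and in edgeR without CONTROL replicate 2 (-0.79, adjusted p 0.0178), and was -0.34 without CONTROL replicate 3. Csnk1a1, a casein kinase that phosphorylates Gli and Smo and the most abundant gene of this role, had a log2 fold change of 0.04 (edgeR adjusted p 0.953), which was -0.00389 with upper quartile scaling.

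Of the 14 genes of transport in the cilium, 10 were below 0 and the median log2 fold change was -0.25. Ift122, a subunit of the complex that carries cargo back out of the cilium, stood at 27.8, 15.5 and 18.6 CPM in the CONTROL samples, against 12.7, 9.90 and 12 CPM with HOXA13. The groups did not overlap, and the log2 fold change of Ift122 was -0.84 (SE 0.31, edgeR adjusted p 0.272). Ift122 passed with limma voom (adjusted p 0.0419) and in edgeR without CONTROL replicate 2 (adjusted p 0.0485). Tulp3, which brings Gpr161 into the cilium, had a log2 fold change of -0.09 (edgeR adjusted p 0.858).

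Genes reported as Hedgehog targets in other tissues were 16, of which 13 were tested, with a median log2 fold change of -0.60. Foxf2, a forkhead factor of gut mesenchyme, stood at 17, 2.16 and 12.4 CPM in the CONTROL samples, against 0.768, 6.68 and 2.55 CPM with HOXA13. CONTROL replicate 2 lay in the HOXA13 range, as it did for Hhip, and the log2 fold change of Foxf2 was -1.65 (SE 0.90, edgeR adjusted p 0.476). It was -2.68 without HOXA13 replicate 2 and -1.14 without CONTROL replicate 1. Ccnd1, which encodes cyclin D1, stood at 254, 231 and 215 CPM in the CONTROL samples, against 185, 147 and 129 CPM with HOXA13 without overlap (log2 fold change -0.60, SE 0.18, edgeR adjusted p 0.185). Ccnd1 passed with limma voom (adjusted p 0.0113) and in edgeR without CONTROL replicate 2 (adjusted p 0.0491). Bmp4, a signalling ligand named here after its values were seen, stood at 157, 149 and 152 CPM in the CONTROL samples, against 96.9, 78.2 and 85.6 CPM with HOXA13. All 3 CONTROL samples of Bmp4 lay close together, replicate 2 included, and its log2 fold change was -0.81 (SE 0.15, edgeR adjusted p 0.0768).

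**Figure D4:**
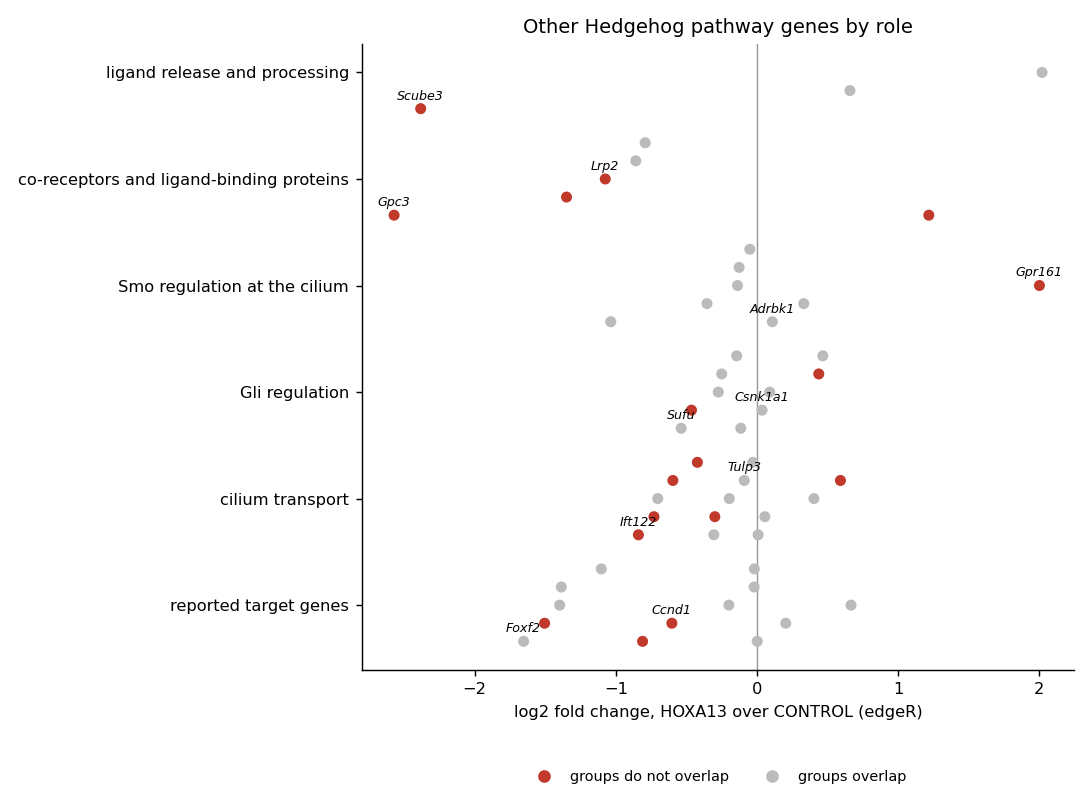
Log2 fold change (edgeR) of the 54 other tested pathway genes, in 6 rows by role, in red where the 3 CONTROL and the 3 HOXA13 values do not overlap and in grey where they do, with the genes named by rule labelled. Red points on the left of 0 (13) outnumber those on the right (4), and the vertical offsets within a row only separate the points.

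Markers of other cell types moved between the samples together with some of these genes. The summed level of the 10 epithelial markers, Cdh1 (E-cadherin) among them, was 2137, 7573 and 5334 CPM for the CONTROL samples, against 9483 to 11316 CPM with HOXA13, with all 10 log2 fold changes above 0 and a median of 1.24 (0.77 without CONTROL replicate 1). Cdh1 itself ranged from 192 to 1292 CPM in CONTROL and from 1690 to 1893 CPM with HOXA13. The summed level of the mesenchymal markers was 4355, 221 and 2489 CPM for the CONTROL samples, against 182, 621 and 565 CPM with HOXA13, with 11 of 13 tested genes below 0 and a median of -1.62 (-0.90 without CONTROL replicate 1 and -1.05 without HOXA13 replicate 1). Of their defining markers Col1a1 had between 1.38 and 1163 CPM and Lum was at 0 counts in all samples but CONTROL replicate 1. In edgeR 0 of the 10 epithelial and 0 of the 13 mesenchymal markers passed, with 7 and 3 at an unadjusted p under 0.05, where the shares over all tested genes were 0.309% and 14.1%. DESeq2 called 1 epithelial and 0 mesenchymal markers (5.07% of all genes tested), limma voom 9 and 2 (15.4%), and edgeR without CONTROL replicate 2 called 8 and 4 (14.2%), the epithelial ones all higher and the mesenchymal ones all lower. Groups did not overlap for 8 of the 10 epithelial markers, all higher (11.5% of all tested genes). The same held for 2 of the 13 mesenchymal markers (20.0% of all tested genes in either direction), 1 higher (11.5%) and 1 lower (8.52%).

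The Hhip level followed the mesenchymal sum in that both were high in CONTROL replicates 1 and 3 and low in the other 4 samples. Foxf2 and Scube3 were also highest in those samples. CONTROL replicate 2, the 1 CONTROL sample with a low mesenchymal sum (221 CPM), had 7.92 CPM of Ptch1 and 70.5 CPM of Smo, which lay with the other CONTROL samples. The epithelial sum and the sum of the mesonephric feeder markers did not overlap between the groups, as Ptch1 and Smo did not. Taken singly, only Wt1 of the 5 tested feeder markers did not overlap. The part of mesenchymal, epithelial or feeder cells in the levels of Ptch1 and Smo was not tested. In RNA from a mixed population, fewer cells of a type and less RNA per cell cannot be told apart.

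**Figure D5:**
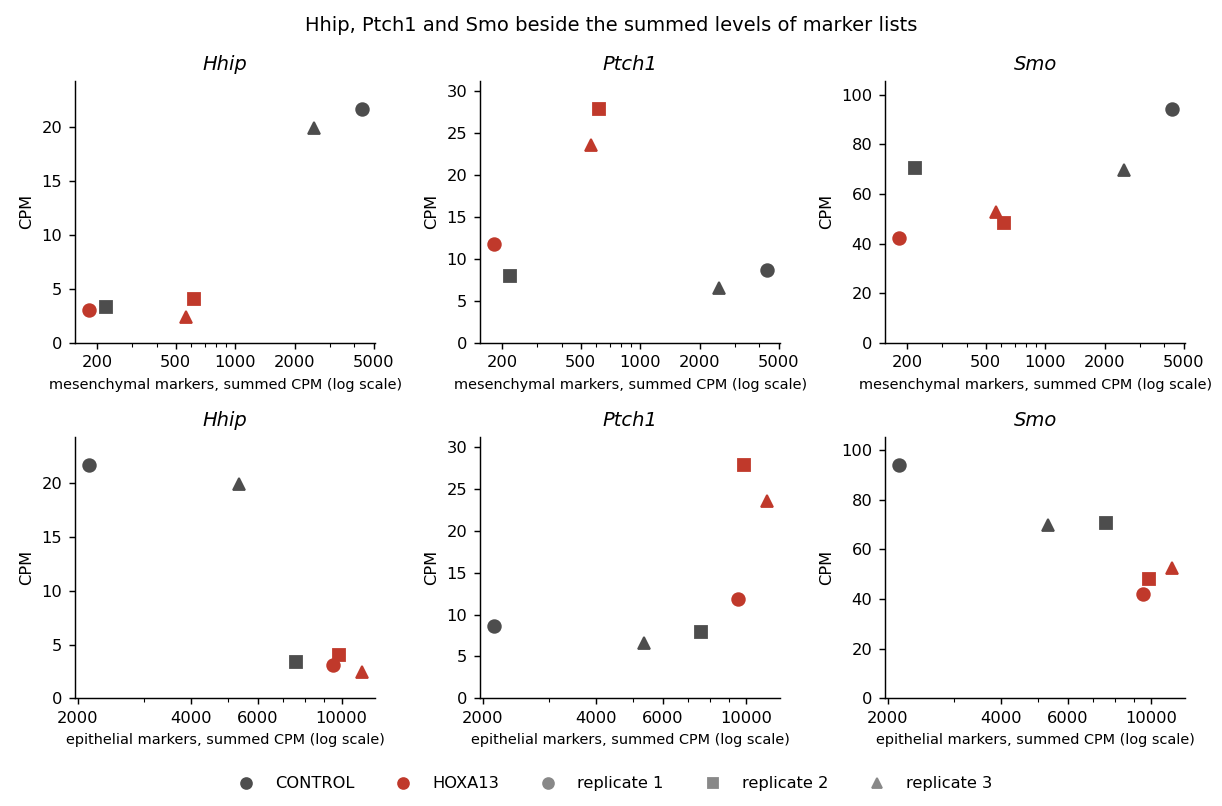
CPM of Hhip, Ptch1 and Smo (linear axes from 0) against the summed CPM of the mesenchymal markers (top row) and the epithelial markers (bottom row), both on log axes, with 1 point per sample. The 2 highest mesenchymal sums, 2489 and 4355 CPM, carry the 2 highest Hhip levels, and the 1 CONTROL sample with a low mesenchymal sum (221 CPM) has Ptch1 and Smo levels near those of the other CONTROL samples.

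The 8 markers of M15-like mesonephric feeder cells summed to 15.5 to 23.6 CPM in CONTROL and 7.28 to 12.6 CPM in HOXA13, without overlap and with CONTROL replicate 2 the highest. Hoxd11 had the highest group means of the 8, 7.57 CPM in CONTROL and 4.56 CPM in HOXA13, and overlapped between the groups. Of the 5 tested markers only Wt1 did not overlap, where 8.52% of all tested genes were lower without overlap. All 5 tested feeder markers had a log2 fold change below 0 (median -0.73). In edgeR 0 of the 5 passed (0.309% of all tested genes), and 0 had an unadjusted p under 0.05 (14.1%). The median was -0.37 with DESeq2 and -0.38 with no filter, over 8 genes each, and -1.10 to -0.59 without one replicate. The defining marker Wt1 was at 0 to 6.64 CPM and Tcf21 at 0 in 5 of 6 samples. Definitive endoderm markers summed to 120 to 191 CPM in CONTROL and 79.7 to 121 CPM in HOXA13 (median log2 fold change -0.02), with Cxcr4 between 2.25 and 11.3 CPM. Of the 9 tested, 0 passed in edgeR (0.309% of all tested genes), and 1 had an unadjusted p under 0.05 (14.1%). DESeq2 called 1 lower (5.07% of all genes in either direction), limma voom 2 (15.4%) and edgeR without CONTROL replicate 2 called 2 (14.2%). Visceral endoderm markers summed to 19.4 to 119 CPM, with Afp, Ttr and Apoa4 at 0 counts in all samples. Within this sum Dab2 alone had 106, 4.72 and 54.3 CPM in the CONTROL samples, against 7.84, 30.3 and 31.0 CPM with HOXA13. Pluripotency markers summed to 1126 CPM in CONTROL replicate 2, 25.5 and 67.8 CPM in CONTROL replicates 1 and 3, and 177 to 497 CPM in HOXA13, with the first-listed marker Pou5f1 between 0.851 and 310 CPM. Of these 8 markers 0 passed in edgeR (0.309% of all tested genes) or DESeq2 (5.07%), and 0 had an unadjusted p under 0.05 in edgeR (14.1%). Limma voom called 3 higher (15.4% of all genes in either direction) and edgeR without CONTROL replicate 2 called 5 higher (14.2%). Gli1 was also highest in CONTROL replicate 2, at 10.3 CPM, and the part of these cells in its level was not tested. Foxa2 and Osr1 belong to both a pathway and a marker list.

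Genes with the most similar pattern were sought for each tested Hedgehog gene among 10720 genes whose CPM averaged 5 or more over the samples, by the mean absolute difference of their centred log2 CPM over the 6 samples. For Ptch1 the nearest was Sox9, which encodes a transcription factor of many progenitor cells, with a difference of 0.0931. Sox9 stood at 22.2, 20.6 and 20.3 CPM in the CONTROL samples, against 36.0, 80.7 and 69.4 CPM with HOXA13, so that HOXA13 replicate 1 was the lowest of its group here too. The next genes for Ptch1 were Mfsd6 (0.179) and Casp8 (0.223), both on chromosome 1.

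For Smo the nearest were Arl2 (0.0529), 0610009B22Rik (0.0664) and Gde1 (0.0783), and for Hhip they were Lhfp (0.226), Pcdh7 (0.234) and Eva1c (0.239). Lhfp had 58.9, 11 and 57.7 CPM in CONTROL and 8.67 to 16.2 CPM in HOXA13, with CONTROL replicate 2 in the HOXA13 range as for Hhip. For Gli3 the nearest were Evi5 (0.0438), Tubb2b (0.0542) and Ppp2r5d (0.0574), and for Gli2 Snora65 (0.0484), Cacna2d1 (0.0784) and Zfp938 (0.0841). The nearest to Gli1 were Mettl4 (0.165), Klf2 (0.191) and 4930444M15Rik (0.222). Dhh was nearest to Irx2 (0.240), Tfpi (0.260) and Hoxd4 (0.267), and Ihh to Areg (0.257), Srcin1 (0.271) and Wdyhv1 (0.297). These genes were chosen for their likeness over the same samples, so no test of it is given.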

How the data were processed

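The authors sequenced stranded poly-A libraries (75-base reads), aligned them to mm9 with TopHat and counted reads with HTSeq (the submitters' processing notes list TopHat2 2.0.14, HTSeq 0.6.1p1 and bcl2fastq 2.17), and deposited raw read counts per gene symbol. The annotation and strand setting are not given in the sources used here. The main analysis ran edgeR 4.0.16 under R 4.3.3: filterByExpr by group (minimum count 10, minimum total 15), TMM normalisation, and glmQLFit and glmQLFTest on the group, with Benjamini-Hochberg adjustment over 13600 genes and a threshold of 0.05. SEs were derived from the F statistic. Alternative fits used DESeq2 1.42.0 and limma 3.58.1 voom with quality weights. Further ones used other scalings and filters, a chromosome offset, a replicate block and leaving out each replicate. The study also worked with DESeq2, in a version that it does not state. Code was tested on simulated data. Positions and exon lengths came from GENCODE M1 (92.4% of tested genes). The Hedgehog genes, pathway lists and marker lists were chosen with earlier results of these data known. Named were all 9 Hedgehog genes, in each role the tested gene with the largest absolute fold change and that with the highest mean CPM, any gene past the threshold, the sorting and first-listed markers, and the 3 genes nearest in pattern. Some pathway genes were named outside this rule, among them Scube1 and Hhat, the other tested genes of their role. So were some markers, among them Eomes and Mixl1. Replicates of a group differed by more than sampling noise in every pair (chi-square per degree of freedom 16.6 to 137), and p-values measure the spread between them. A result on 1 other pathway gene is not reported here.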

Additional observations from a re-analysis of the deposited data

How the results depend on the processing

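The number of genes past the threshold depended on the setting, and the cause was not tested. For the 8 tested Hedgehog genes (0 in edgeR) it was 3 with DESeq2, 4 with limma voom and 0 to 3 over the fits without one replicate, the 3 being those without CONTROL replicate 2. For the other pathway genes (0 in edgeR) it was 6 with DESeq2, 12 with limma voom, 2 with the edgeR 4 method, 3 with no filter and 0 to 12 without one replicate. For all tested genes (42 in edgeR) it was 722 with DESeq2, 2101 with limma voom, 106 with the edgeR 4 method, 163 with no filter, 9 with a filter on a mean of 50 counts, 1 with the chromosome offset, and 0 to 2006 without one replicate, the highest without CONTROL replicate 2.

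Ptch1 (log2 fold change 1.43), Smo (-0.74) and Hhip (-2.26) passed with DESeq2, and Ptch1 (1.67), Smo (-0.63), Gli3 (-0.58) and Hhip (-2.54) with limma voom. Without one replicate Ptch1 ranged from 1.17 to 1.72, Smo from -0.81 to -0.58, Gli3 from -0.54 to -0.30 and Hhip from -2.72 to -1.89. The log2 fold changes of Ptch1, Smo, Hhip, Gli3, Dhh and Ihh kept their sign in every alternative that tested them. Ihh could not be tested under the filter on a mean of 50 counts. Gli1 reversed with limma voom (0.10) and ranged from -1.0 to 0.0837 without one replicate. Gli2 was -0.62 with the chromosome offset. Without one replicate Gli2 ranged from -0.18 to 0.15, Dhh from -1.32 to -0.48, Ihh from 0.64 to 1.35, Adrbk1 from -0.0422 to 0.18 and Csnk1a1 from -0.10 to 0.0812, and Csnk1a1 was -0.00389 with upper quartile scaling. The median of definitive endoderm markers was 0.23 with DESeq2, 0.23 with no filter, -0.28 under the filter on a mean of 50 counts and -0.20 to 0.50 without one replicate. That of visceral endoderm markers was -0.47 with DESeq2, -0.48 with no filter and -1.09 to -0.46 without one replicate. That of pluripotency markers turned from -0.72 to 1.63 with limma voom and 1.02 with the replicate block, and was -1.51 to 2.39 without one replicate, the highest without CONTROL replicate 2.

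Replicate numbers did not pair the samples, as the deviations of same-numbered samples had correlations of -0.186, -0.247 and 0.0789 across genes. With the replicate number as a block, edgeR called 0 of all 13600 genes (1392 at an unadjusted p under 0.05) and 0 of the 8 Hedgehog genes, where the log2 fold changes were 1.38 for Ptch1, -0.71 for Smo and -1.95 for Hhip. Shh was at or under the floor of 3 counts in 4 of the 6 samples. Ihh (SE 0.85) and Gli2 (SE 0.54) had wide intervals, and so did Gli1 (SE 0.66) and Hhip (SE 0.67). The part of depth in these widths was not tested.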
